A study of Mus musculus with 42 samples.

Results

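The blood transcriptome of 3xTg-AD mice that had received transcranial direct current stimulation (tDCS) was compared with that of C57BL/6 mice that had received a sham procedure. The members are all mice whose labels give these combinations of strain and stimulation, the hippocampus as the site and an age of 6 months. They are 8 and 6 mice, together 14 of the 42 mice of the series. In tDCS a weak constant current passes between an electrode on the skull and a counter electrode over the chest. Mice with the hippocampal electrode were stimulated on consecutive days in the anodal configuration, and blood was drawn shortly after the last session. Sham mice went through the same steps without current. The 3xTg-AD mouse has among its alleles human APP with the Swedish mutation and a mutated human MAPT (tau), C57BL/6 is the wild type, all mice were male, and the strains were kept as separate colonies. Strain and stimulation therefore differed together and cannot be told apart by this comparison alone. Set beside it were 5 3xTg-AD sham mice and 3 C57BL/6 tDCS mice of the same age and electrode. The question was how much of the difference between strains was left after stimulation.

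As background, APP is the precursor of the amyloid peptide, and tau binds microtubules. In this model the APP and MAPT transgenes are driven by a Thy1 element that acts mainly in neurons. The line was made on a mixed C57BL/6 and 129 background, so that alleles of the background and effects of the transgenes cannot be told apart in these groups. Whole blood RNA comes mostly from reticulocytes, platelets and white cells, among which are neutrophils, B cells and T cells. In such bulk samples, fewer cells of a type and less RNA per cell cannot be told apart.

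The deposited values were reads counted per gene from a 3′ mRNA library, in which reads fall near the ends of transcripts. The 14 libraries held 13451155 to 37747255 reads and between 13642 and 15120 genes with a read. Haemoglobin genes took 17.5% to 44.6% of the reads in 3xTg-AD tDCS mice and 10.8% to 32.7% in C57BL/6 sham mice, although globin RNA had been depleted. Between pairs of the 14 mice, Pearson's r of log2 CPM (counts per unit of library size after TMM scaling) ran from 0.842 to 0.962 as a description, and no libraries were identical. Reads of the human transgenes were not listed apart, so the mouse genes do not check the strain labels. App had 12.2 to 61.7 CPM in 3xTg-AD tDCS mice and 9.98 to 24.3 in C57BL/6 sham mice, and Mapt 0 to 0.373 and 0 to 0.169. Neither gene was called in the comparison.

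Some of the genes that follow had reads in a single strain or nearly so, and the sequence before the transcription start is where the control of a gene begins. The 250 bases upstream of the RefSeq start are shown for 4 genes that the results turn on, in the reference genome GRCm38.p6, which is a C57BL/6 sequence. Npy encodes neuropeptide Y (chr6:49822460-49822709, plus strand) and Klk1b22 a tissue kallikrein, a secreted serine protease (chr7:44112423-44112672, plus strand). Apoe encodes apolipoprotein E, a carrier of lipids (chr7:19699189-19699438, minus strand), and S100a8 a calcium-binding protein abundant in neutrophils (chr3:90668821-90669070, plus strand). All 4 were matched by symbol. Capitals mark matches, on either strand, to the TATA box (TATAAA), to the motif CCAAT and to the site of GATA factors, which was searched as GATAAG.
Npy: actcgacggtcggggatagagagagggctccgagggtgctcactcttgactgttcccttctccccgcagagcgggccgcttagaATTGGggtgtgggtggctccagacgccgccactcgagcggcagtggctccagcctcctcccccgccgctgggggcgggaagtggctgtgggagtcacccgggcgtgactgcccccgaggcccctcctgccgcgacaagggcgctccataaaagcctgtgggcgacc
Klk1b22: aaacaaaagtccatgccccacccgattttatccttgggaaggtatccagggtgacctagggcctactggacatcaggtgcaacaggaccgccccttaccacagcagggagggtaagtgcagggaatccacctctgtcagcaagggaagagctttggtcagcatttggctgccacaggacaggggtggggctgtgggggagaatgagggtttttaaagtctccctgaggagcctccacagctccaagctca
Apoe: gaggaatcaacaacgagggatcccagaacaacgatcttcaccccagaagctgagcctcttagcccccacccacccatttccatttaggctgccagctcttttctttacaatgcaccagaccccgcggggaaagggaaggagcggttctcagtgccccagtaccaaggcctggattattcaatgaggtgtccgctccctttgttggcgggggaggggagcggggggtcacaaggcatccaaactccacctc
S100a8: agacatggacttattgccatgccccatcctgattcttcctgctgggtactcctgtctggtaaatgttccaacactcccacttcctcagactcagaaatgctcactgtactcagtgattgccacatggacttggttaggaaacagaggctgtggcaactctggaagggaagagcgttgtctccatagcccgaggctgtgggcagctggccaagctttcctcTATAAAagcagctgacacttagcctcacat
The S100a8 window held TATAAA 30 bases before the RefSeq start. The Npy window held CCAAT on the minus strand, printed here as its reverse complement. The Klk1b22 and Apoe windows held none of the 3 motifs. Of 32851 RefSeq promoters, 12.4% held TATAAA, 33.8% CCAAT and 6.55% GATAAG in windows of the same length. The RefSeq start of S100a8 lies 93 bases from the start of the gene in GENCODE M21. No genome of the 3xTg-AD strain was used here, so whether these windows differ between the strains was not tested.

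After tDCS, the blood of 3xTg-AD mice differed from that of C57BL/6 sham mice in 851 of 15612 genes tested (5.45%; edgeR quasi-likelihood test, adjusted p under 0.05). Of these, 459 (2.94%) were higher and 392 (2.51%) lower in the 3xTg-AD mice, and 3090 genes had an unadjusted p under 0.05. The median absolute log2 fold change was 1.62 over the called genes, against 0.44 over all genes tested. It was at least 1 in 718 and at least 3 in 193 of them. In 323 of the 851 called genes the CPM ranges of the groups did not overlap, as in 348 genes among all tested (2.23%), 211 higher (1.35%) and 137 lower (0.878%). Among the called genes, 11 had no read in any C57BL/6 sham mouse and 20 had none in any 3xTg-AD tDCS mouse. Protein-coding genes were called at 5.62%, long non-coding RNAs at 4.92% and pseudogenes at 4.99%, and of the 52 pseudogenes called 41 were higher. Without the C57BL/6 sham mouse BA the number of genes called was 557, 300 higher and 257 lower.

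Without current in either strain, 3xTg-AD sham mice differed from the same C57BL/6 sham mice in 1233 genes (7.9%), 738 higher (4.73%) and 495 lower (3.17%), and in 781 without mouse P or 797 without mouse S. The order of these counts depended on the fit. With the 22 hippocampal mice of 6 months in one fit, the counts were 1207 after tDCS (615 higher and 592 lower) and 1146 under sham (665 higher and 481 lower). The direct comparison of 3xTg-AD tDCS with 3xTg-AD sham mice called 0 of 15599 genes with edgeR. There, 1392 genes had an unadjusted p under 0.05, the smallest adjusted p was 0.353, and DESeq2 called 45 genes, 20 higher and 25 lower after tDCS. The interaction of strain and stimulation over the 22 mice called 0 genes with edgeR and 0 with DESeq2, with 856 genes at an unadjusted p under 0.05 in edgeR. Against C57BL/6 mice that had also received current, 3xTg-AD tDCS mice differed in 219 genes (1.4%), 118 higher (0.756%) and 101 lower (0.647%). With 3 mice on the C57BL/6 side, that count was 86 without U, 57 without V and 133 without X. The comparisons with C57BL/6 sham mice share those 6 mice, and the comparisons with 3xTg-AD tDCS mice share those 8, so their values are set side by side.

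How much of the strain difference was left was measured on genes chosen in mice outside these 14 and outside the 3xTg-AD sham mice set beside them. At 3 months, 58 of 15544 genes (0.373%) were called between 3 3xTg-AD and 3 C57BL/6 mice, 27 higher (0.174%) and 31 lower (0.199%). Of these, 47 (81%) were called in the same direction in 3xTg-AD tDCS against C57BL/6 sham mice at 6 months, where the background was 2.94% higher and 2.51% lower. Of 489 genes that DESeq2 called at 3 months, 171 (35%) were called in the same and 8 in the opposite direction. The 8 were Slpi, Chil3, B3gnt8, Cd33, H19, Gm5483, Retnlg and Il13ra1. Among the 58, Gm5483 was the only one called the opposite way, at a log2 fold change of 1.93. Taken in the direction of the 3-month difference, the median log2 fold change of the 58 genes was 2.69 after tDCS and 2.65 under sham. For each mouse, the median over these genes of the log2 difference from the C57BL/6 sham mean, taken in that direction, was its distance. The 8 3xTg-AD tDCS mice lay at 2.35 to 2.83 with a mean of 2.54 ± 0.145 (SD), and the 5 3xTg-AD sham mice at 2.38 to 2.88 with a mean of 2.61 ± 0.177. The 3 C57BL/6 tDCS mice lay at -0.183 to 0.265 and the 6 C57BL/6 sham mice at -0.24 to 0.518. The ranges of the 3xTg-AD groups overlapped almost throughout. Their difference was -0.0753 with a 95% interval from -0.276 to 0.127 (exact permutation test, two-sided, p = 0.407, adjusted over 2 tests p = 0.407), and the distance after tDCS was 97.1% of that under sham. The choice of 58 genes was itself unsteady, with 29 genes called without the C57BL/6 mouse I, 657 without the C57BL/6 mouse AS, and 18, 20 and 20 without each 3xTg-AD mouse.

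A larger set came from mice stimulated over the prefrontal cortex, where 476 of 15500 genes (3.07%) were called between 6 3xTg-AD and 4 C57BL/6 tDCS mice, 379 higher (2.45%) and 97 lower (0.626%). Of these, 233 (48.9%) were called in the same direction and 0 in the opposite direction in 3xTg-AD tDCS against C57BL/6 sham mice. With DESeq2 choosing 1073 genes, these were 334 (31.1%) and 0. The median log2 fold change of the 476, taken in the direction of the prefrontal difference, was 1.17 after tDCS and 1.44 under sham. The 3xTg-AD tDCS mice lay at distances of 0.985 to 1.71 with a mean of 1.24 ± 0.238 (SD, n = 8), and the 3xTg-AD sham mice at 1.24 to 1.72 with a mean of 1.44 ± 0.183 (n = 5). The difference was -0.208, with a 95% interval from -0.464 to 0.073 (exact permutation test, two-sided, p = 0.134, adjusted p = 0.267), and the distance after tDCS was 85.6% of that under sham. Without the 3xTg-AD tDCS mouse T, which held the highest distance, the difference was -0.275 (exact permutation p = 0.0227, not adjusted). That was the only removal with p under 0.05. Without each other mouse in turn the exact permutation p, not adjusted, ran from 0.0929 to 0.319. In the direct comparison of tDCS with sham, 293 of the 473 genes tested moved toward the C57BL/6 level, with a median of -0.191 on the log2 scale, and edgeR called none of them. Of the 58 genes chosen at 3 months, 32 moved toward the C57BL/6 level, with a median of -0.043. Without each of the 4 C57BL/6 mice in turn, the prefrontal comparison called 224 to 258 genes.

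**Figure D1:**
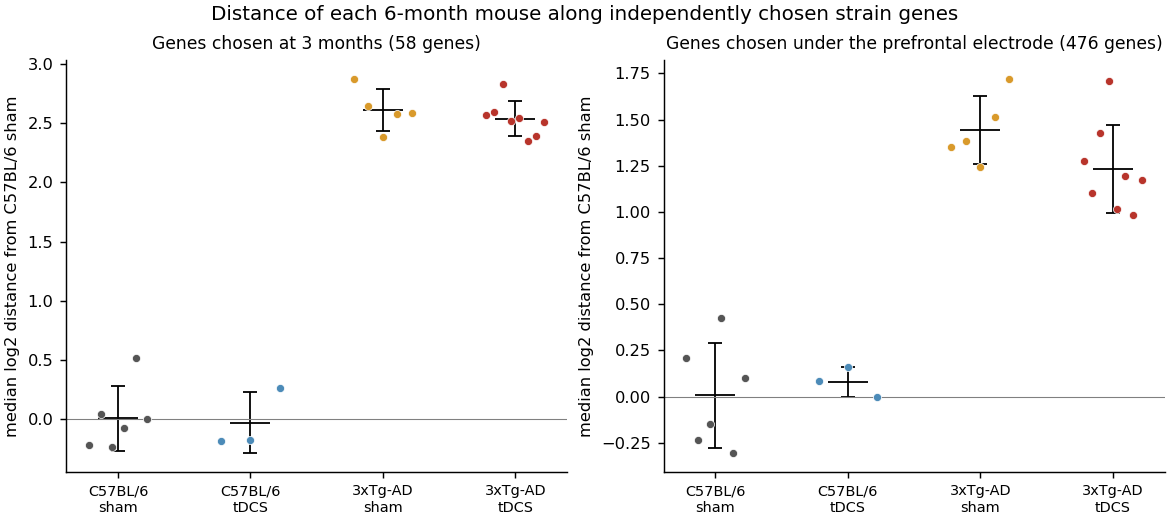
Each point is a mouse of 6 months with the hippocampal electrode, and its height is the median log2 difference from the C57BL/6 sham mean over strain genes chosen in other mice, at 3 months (left, 58 genes) or under the prefrontal electrode (right, 476 genes), with mean and SD per group. The 3xTg-AD tDCS mice (2.35 to 2.83 and 0.985 to 1.71) lie above both C57BL/6 groups and overlap the 3xTg-AD sham mice.

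The other hippocampal groups gave another set. Between the 5 3xTg-AD sham and the 3 C57BL/6 tDCS mice, 644 of 15605 genes were called (4.13%). In the 3xTg-AD mice 327 were higher (2.1%) and 317 lower (2.03%). In the 14 mice, 613 of the 644 had the same sign, 277 were called in the same direction and 0 in the opposite direction. The 277 are 43% of the 644 and 32.5% of the 851. Of 1246 genes that DESeq2 called there, 392 (31.5%) were called in the same direction in the 14 mice. The median log2 fold change of the 644, taken in the direction in which they were chosen, was 1.02. The 8 3xTg-AD tDCS mice lay at distances of 0.703 to 1.27 over these genes, and the 6 C57BL/6 sham mice at -0.317 to 0.347. The 644 were 387 without the 3xTg-AD sham mouse P, 349 without S, 389 without the C57BL/6 tDCS mouse U and 174 without V.

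**Figure D2:**
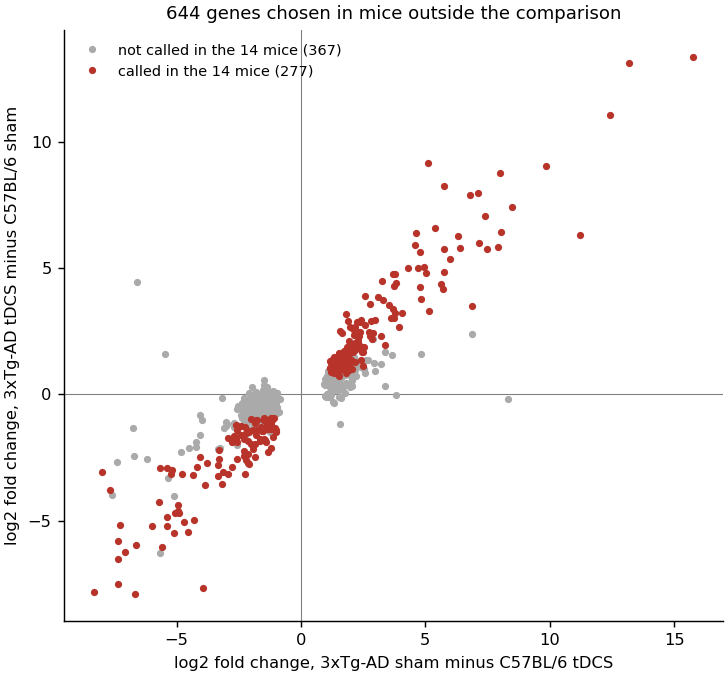
Each point is 1 of the 644 genes called between 3xTg-AD sham and C57BL/6 tDCS mice, with the log2 fold change in those mice on the horizontal axis and that of 3xTg-AD tDCS minus C57BL/6 sham in the 14 other mice on the vertical axis. The 277 genes called in the 14 mice (red) have the same sign on both axes, as do 613 of all 644.

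The 20 genes of smallest p, 10 in each direction, did not overlap between the groups, as was so for 348 of all 15612 genes tested (2.23%). Their direction and call were kept in all 440 values under the alternative settings. They were chosen by p in these same mice, so both statements describe the choice and are not support. Of these 20 genes, 14 are also on a list of 16 that the study names for the strains, so that their direction is not independent evidence. Klk1b22 had no read in any of the 6 C57BL/6 sham mice or the 3 C57BL/6 tDCS mice. In 3xTg-AD tDCS mice it had 59.3 (M), 45.3 (N), 49.1 (Q), 41.8 (T), 21.8 (Z), 31.8 (AL), 34.7 (AM) and 30.8 (AN) CPM. With 3 reads per library as the floor for a gene without a read, this was at least 329-fold higher (edgeR adjusted p = 6.91e-09). The 3xTg-AD sham mice had 25.7 (O), 42 (P), 33 (R), 27.7 (S) and 79.6 (AQ) CPM, at least 348-fold higher than the floor. In the direct comparison of tDCS with sham its log2 fold change was -0.10, with a 95% interval from -0.659 to 0.468. It is the only member of the kallikrein list in the table.

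BC018473, a gene of the antisense class on chromosome 11, had 13.6 to 26.4 CPM in 3xTg-AD tDCS mice, while the C57BL/6 sham mice had 1 read in all, in mouse W. Its log2 fold change was 11.08 (SE 0.459, edgeR adjusted p = 3.91e-11). Gdpd3, which encodes a lysophospholipase D, had 53.3 to 143 CPM against 0 to 0.421, or 9.03 on the log2 scale (SE 0.586). Josd2, a deubiquitinase, was read in both strains, at 119 to 287 CPM against 3.01 to 8.05, or 5.36 on the log2 scale (SE 0.327). In the direct comparison of tDCS with sham, the 95% intervals of Josd2 (-1.03 to -0.0924 on the log2 scale) and Gdpd3 (-1.01 to -0.0372) lay below 0, toward the C57BL/6 level. Neither gene was called there, with edgeR adjusted p of 0.521 and 0.56. Intervals here use a normal quantile and are narrower than the edgeR test would give, so a bound near 0 does not show a shift. Cttnbp2, which encodes a cortactin-binding protein, had 4.87 to 42.9 CPM against 0.0839 to 0.304. The others were the pseudogenes Gm11942, Gm17511 and 4930526A20Rik, the processed transcript AA465934 and Gm45104. Gm11942 was the most abundant of the 10, at 1030 to 4339 CPM against 3.08 to 9.43.

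Apoe was among the 10 genes of smallest p that were lower. It had 3.31, 7.7 and 11 CPM (lowest, median and highest) in 3xTg-AD tDCS mice and 47.8, 69.7 and 132 CPM in C57BL/6 sham mice. Its log2 fold change was -3.53 (SE 0.297, edgeR adjusted p = 8.28e-07). Under sham it was -2.95, and the 3xTg-AD sham mice had 9.28 (O), 6.97 (P), 27.4 (R), 2.48 (S) and 6.7 (AQ) CPM, R being above the other four. Serpine2, an inhibitor of thrombin and other serine proteases, had 6.36 to 11.8 CPM against 28.4 to 116. F2rl2, a receptor of the protease-activated family, had 0.916 to 5.14 CPM against 30.9 to 107. These 3 are among 9 coagulation genes that the study chose on these samples, of which 0 were called higher with edgeR and 7 lower after tDCS (median -1.57, and 1 higher with DESeq2, limma voom, RLE scaling or the fits of 22 or 42 mice) and 1 higher and 7 lower under sham. Idua, a lysosomal enzyme that degrades glycosaminoglycans, had 0.109 to 1.6 CPM against 12.1 to 26.8. Its neighbour Fgfrl1, a receptor of fibroblast growth factors that lacks a kinase domain, had 0 to 0.313 against 4.9 to 13. Tsen34, a subunit of the tRNA splicing endonuclease, had 0.235 to 0.92 CPM against 11.8 to 21.6. Dut, which encodes the enzyme that breaks down dUTP, had 1.81 to 5.03 against 14.1 to 41.3, and Acp1, a tyrosine phosphatase, 2.38 to 11.5 against 49.5 to 132. Gm48905 and 1700030C10Rik had 0 to 0.999 and 0 to 0.0303 CPM against 9.28 to 27.4 and 0.685 to 3.56. Between tDCS and sham, the interval of Serpine2 (-0.971 to -0.141) lay away from the C57BL/6 level and that of Gm48905 (0.0842 to 3.67) toward it, and neither was called. With a normal quantile these intervals are narrow, and the lower bound of Gm48905 lies near 0.

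**Figure D3:**
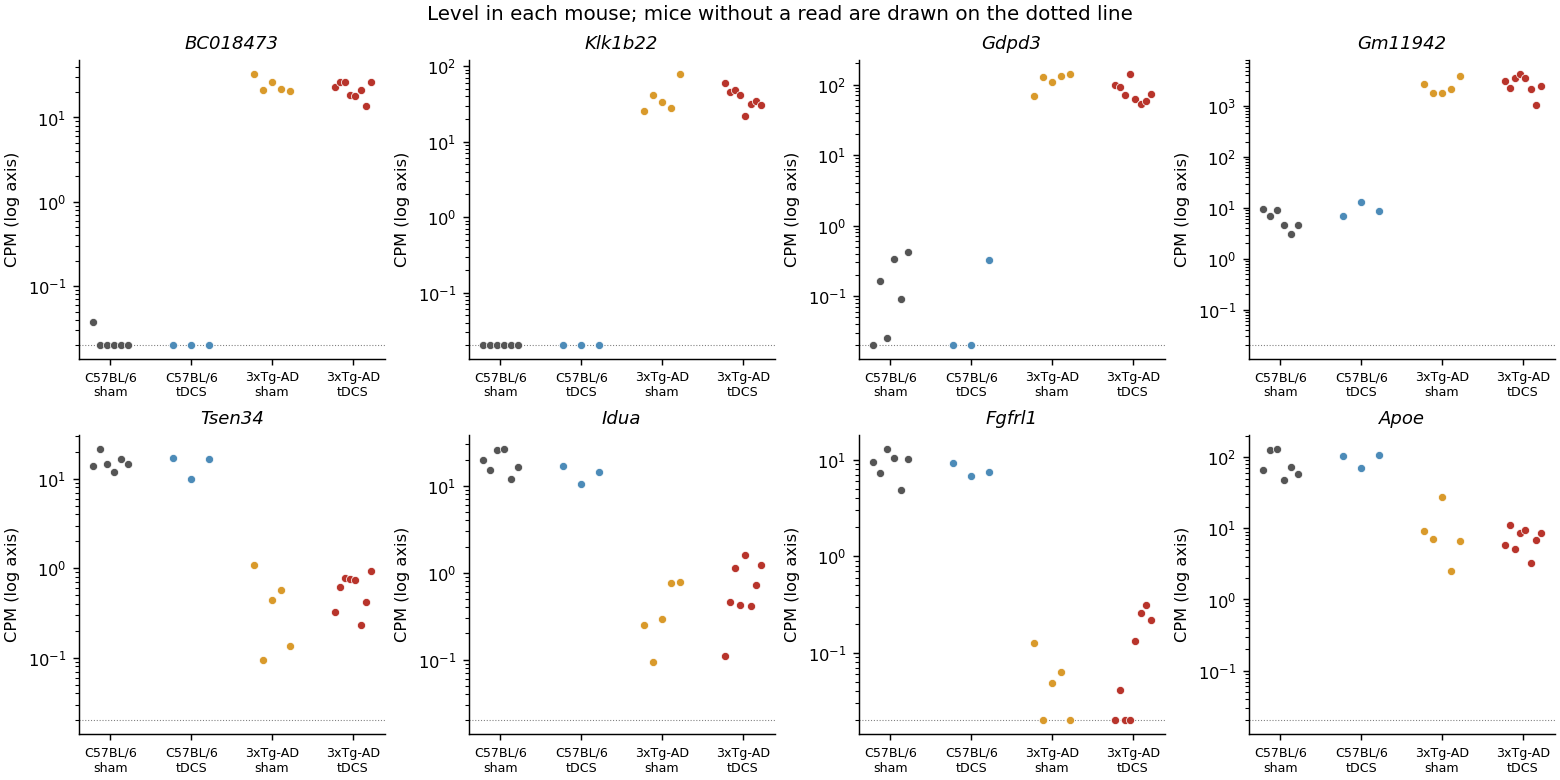
Each panel gives the CPM of a gene in every hippocampal mouse of 6 months on a log axis, by group, and a mouse without a read is drawn on the dotted line. In all 8 genes shown the 3xTg-AD tDCS mice lie near the 3xTg-AD sham mice and apart from both C57BL/6 groups, as for Klk1b22, which had no read in 9 C57BL/6 mice.

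Some of these genes share sequence with others. Over the last 300 bases of their transcripts, 64.1% of the 31-base words of Tsen34 were also found in other genes, and 59.4% in 4930526A20Rik. Tsen34 was lower and 4930526A20Rik higher in 3xTg-AD tDCS mice, so that a change in how reads divide between them cannot be told apart from a change of both. Acp1 shared 76.5% of its words, Gm11942 56.3%, Gm17511 55.9%, Klk1b22 50.4% (most of all with Klk1b21), 1700030C10Rik 37.8% and Gdpd3 22.3%. The counts of these genes are uncertain. Apoe, Josd2, Cttnbp2, Dut, F2rl2, Fgfrl1, Gm45104, Gm48905, Serpine2 and Npy shared 0%. Gdpd3, Tsen34, Idua and F2rl2 overlap a gene on the opposite strand (Gm9967, Mboat7, Slc26a1 and Iqgap2), and Gm48905 overlaps Eipr1 on the same strand. The strand setting of the counts was not given in the sources used here.

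Npy was high in all but 1 of the 3xTg-AD tDCS mice, with 0.156, 162 and 285 CPM as lowest (3 reads, mouse AM), median and highest. C57BL/6 sham mice had 2 reads in all, in a single mouse. The log2 fold change was 13.36 (SE 1.32, edgeR adjusted p = 4.12e-06). The 3xTg-AD sham mice spanned 0 to 387 CPM with a median of 304, and 1 of them had no read. Tpm4, a tropomyosin of the cytoskeleton, fell by 3.07 on the log2 scale (SE 0.326), with 53.6, 81.8 and 102 CPM in 3xTg-AD tDCS mice against 231, 624 and 1165 in C57BL/6 sham mice. The study names both for the strains. Of its 16 strain genes, 9 were called higher and 7 lower after tDCS, and likewise under sham. With limma voom 8 were called higher after tDCS, since Npy was not called there (adjusted p = 0.102).

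For the gene lists that follow, the shares called over all genes tested are the background. They were 2.94% higher and 2.51% lower after tDCS, and 4.73% higher and 3.17% lower under sham. A count of 1 or 2 genes of a list lies near these shares and is not a result about the list. Genes of neutrophils, the phagocytes that carry antimicrobial granules, were higher in 3xTg-AD tDCS mice. Of 14 tested, 9 were called higher and 0 lower, and all 14 had a positive log2 fold change, with a median of 3.03 against -0.0222 over all genes. The highest log2 fold change of the list was that of the granule gene Camp. Camp, which encodes the cathelicidin, had 31.8, 168 and 941 CPM in 3xTg-AD tDCS mice and 0, 0.282 and 2.47 in C57BL/6 sham mice. The log2 fold change was 8.27 (SE 1.19, edgeR adjusted p = 0.000348). Ngp, the neutrophilic granule protein, had 62.4, 208 and 1603 CPM against 0, 1.05 and 5.57. Ltf, which encodes the iron-binding lactoferrin, had 14.9, 59.9 and 359.9 CPM against 0.913, 1.95 and 7.58. Lcn2, lipocalin 2, which binds bacterial iron carriers, had 27, 111 and 385 CPM against 3.02, 4.68 and 8.37. In each of these 4 genes the lowest 3xTg-AD tDCS mouse lay above the highest C57BL/6 sham mouse, as in 211 of all 15612 genes tested (1.35%). How many of the 14 listed genes did so was not counted. S100a8, whose promoter is printed above, had 1378, 3861 and 12630 CPM against 225, 354 and 1030, or 3.14 on the log2 scale, with an SE of 0.549 and an edgeR adjusted p of 0.00189. S100a9, its partner in calprotectin, the surface protein Ly6g and the proteases Mmp8 and Mmp9 were also called. The receptors Cxcr2 and Csf3r, which mature neutrophils carry, were not called, with log2 fold changes of 1.39 (SE 0.501, adjusted p = 0.121) and 0.83 (SE 0.416, adjusted p = 0.282).

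Summed over the neutrophil list, 3xTg-AD tDCS mice had 3698 to 33520 CPM and C57BL/6 sham mice 535 to 2908, without overlap. The 3xTg-AD sham mice spanned 2128 to 13080 and the C57BL/6 tDCS mice 2267 to 2856. Under sham, 7 of the 14 genes were called, all of them higher in the 3xTg-AD mice, with a median of 2.13. In the direct comparison of tDCS with sham, all 14 log2 fold changes were positive with a median of 0.79, and 0 were called. The count of called genes was 8 or 9 whichever mouse was left out, and 11 with the haemoglobin share as covariate.

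Fewer genes of other myeloid cells were called. Of 8 eosinophil and basophil genes, 3 were called higher and 0 lower. Prg2, the major basic protein of eosinophils, had 6.29, 16.7 and 79.5 CPM in 3xTg-AD tDCS mice and 0, 0.386 and 0.998 in C57BL/6 sham mice (log2 fold change 5.75, SE 0.722, edgeR adjusted p = 8.44e-05). Epx, eosinophil peroxidase, had no read in C57BL/6 sham mice and 0 to 1.3 CPM in 3xTg-AD tDCS mice, at least 3.85-fold higher in the mean. Mcpt8, a basophil protease, had 0.109 to 7.22 CPM against 0.269 to 0.771, which overlap. The count of 3 was 1 without any of the C57BL/6 sham mice or without the 3xTg-AD tDCS mouse Z or AL, and 1 with limma voom. Of 12 monocyte genes, the lipopolysaccharide receptor Cd14 and the lectin Clec4a1 were called higher, and the median over the list was 0.66. Cd14 had 3.83 to 24.5 CPM against 0.168 to 1.37, a log2 fold change of 3.59 (SE 0.485).

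B cell genes were lower. Of 13 tested, 0 were called higher and 10 lower, and all 13 had a negative log2 fold change, with a median of -1.15. Cd79b, a signalling chain of the B cell receptor, had 31.5, 59.4 and 71.5 CPM in 3xTg-AD tDCS mice and 103, 145 and 167 in C57BL/6 sham mice, without overlap. Its log2 fold change was -1.35 (SE 0.209, edgeR adjusted p = 0.000688). Fcer2a, the low-affinity IgE receptor, had 3.47 to 15.6 against 22.9 to 54.6. The heavy chain genes Ighm and Ighd fell by 1.22 and 1.15 on the log2 scale, and the B cell transcription factor Ebf1 fell by 0.94. The summed list ran from 297.6 to 624.5 CPM in 3xTg-AD tDCS mice, 349 to 742 in 3xTg-AD sham, 659 to 1220 in C57BL/6 sham and 673 to 818 in C57BL/6 tDCS mice. Under sham, 4 of the 13 were called lower, with a median of -0.78. In the direct comparison of tDCS with sham, all 13 were negative with a median of -0.40, and 0 were called. The count after tDCS was 5 without the C57BL/6 sham mouse AZ and 6 with all 42 mice in one fit.

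Of 10 genes of MHC class II and its loading, by which B cells and other cells present antigen, H2-Aa, H2-DMb2 and H2-Ob were called lower and 0 higher. That count was 1 with 42 mice in one fit and 1 without any of M, AL, Y, AA, AZ or BA, and 5 without Q. The immunoglobulin lambda genes Iglc1, Iglc2 and Iglc3 on chromosome 16, chosen after their values were seen, had log2 fold changes of -1.135, -1.173 and -1.029. Of 14 genes of MHC class I and its peptide loading, 0 were called with edgeR, and the median was -0.24.

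T cell genes gave a single call. Of 14, Il7r, the receptor of interleukin 7, was called higher, by 1.31 on the log2 scale with an SE of 0.347 (edgeR adjusted p = 0.0336). The call was lost with the haemoglobin share as covariate and without M, N, AM, Y, AA, AY, AZ or BA. The summed list ran from 191 to 528 CPM in 3xTg-AD tDCS and 207 to 331 in C57BL/6 sham mice. All 10 NK cell genes were negative with a median of -0.56, and Klrb1c, the receptor NK1.1, was called lower. The Klr receptors are encoded by a cluster of paralogs on chromosome 6 that differs between mouse strains, and their reads can be divided wrongly among them. Of 17, 1 was called higher and 5 lower, with a median of -1.63. Klra17 was the one higher, at 2.49 to 11.2 CPM against 0 to 1.9, and Klra7, Klra8, Klrc1, Klri2 and Klrk1 were lower. The number lower was 2 without the C57BL/6 sham mouse W or AZ, 3 without N, AL, AM, Y or AA or with the haemoglobin share as covariate, and 8 with limma voom.

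Of 20 interferon-stimulated genes, Oasl2 and Irf7 were called lower and 0 higher, with a median over the list of -0.0941. Oasl2, a protein like oligoadenylate synthetase, had 0.235, 1.94 and 7.03 CPM in 3xTg-AD tDCS mice and 11.2, 18.8 and 31 in C57BL/6 sham mice (log2 fold change -2.99, SE 0.515, edgeR adjusted p = 0.00168). The 3xTg-AD sham mice spanned 0.283 to 1.32 CPM, and the log2 fold change of tDCS against sham was 1.99 (adjusted p = 0.423). Irf7, a transcription factor of the interferon response, had 11.8 to 54.6 CPM against 44 to 116. Under sham 4 of the list were called lower, with a median of -0.50.

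Platelet genes were called lower in 6 of 16 and higher in 0, and all 16 were negative, with a median of -1.06. Ppbp, the precursor of platelet chemokines, had 615, 1514 and 1902 CPM in 3xTg-AD tDCS mice and 1688, 3290 and 6744 in C57BL/6 sham mice. Its log2 fold change was -1.44 (SE 0.339, edgeR adjusted p = 0.0176), and it was -1.78 under sham. Itga2b, a chain of the fibrinogen receptor, Gp9 and Gp5 of the von Willebrand factor receptor, and Treml1 were also called. Under sham, 2 of the 16 were called lower with a median of -0.69. Summed over the list, 3xTg-AD tDCS mice had 2719 to 7064 CPM and C57BL/6 sham mice 5407 to 16800. With the haemoglobin share as covariate the count was 2, and the part of that share in the result was not tested further. It was 2 without the C57BL/6 sham mouse W, AY or BA and 3 without the 3xTg-AD tDCS mouse M or N.

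Erythroid genes were called higher in 3 of 19 and lower in 0 after tDCS, and 18 were positive with a median of 0.78. Klf1, the erythroid transcription factor, had 5.54, 8.74 and 19.6 CPM in 3xTg-AD tDCS mice and 0.816, 2.57 and 4.03 in C57BL/6 sham mice (log2 fold change 2.12, SE 0.366, edgeR adjusted p = 0.00168). Xpo7, a nuclear transport receptor, had 166, 558 and 992 CPM against 67.3, 97.3 and 157, without overlap, and Ermap, an erythroid membrane protein, had 6.22 to 19.4 against 2.79 to 4.72. Alas2, which starts haem synthesis in red cells, had a log2 fold change of 0.14. Under sham, 12 of the 19 were called higher with a median of 1.20. In the direct comparison 17 of 19 were negative after tDCS with a median of -0.47, and 0 were called. The count after tDCS was 6 without the 3xTg-AD tDCS mouse AN, 6 with the 22 mice in one fit and 7 with DESeq2, so that 3 and 12 are not shown to differ. Of 9 haemoglobin genes, 0 were called with edgeR after tDCS and 0 under sham, and 1 was called higher after tDCS with DESeq2 and 1 with all 42 mice in one fit.

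Of 14 genes of haem synthesis and haem and iron transport, 3 were called higher after tDCS, among them the enzymes Alad and Ppox, and 5 were called higher under sham. The count after tDCS was 1 without the C57BL/6 sham mouse W or AA and with all 42 mice in one fit. Of 22 genes of selective autophagy, by which reticulocytes clear their mitochondria, Rb1cc1 and Clec16a were called higher and 0 lower after tDCS, and 9 higher and 2 lower under sham. The count of 2 was 0 without N, W, Y, AZ or BA, and 1 without M, Q, T, Z, AL, AA or AY, with the haemoglobin share as covariate or with 42 mice in one fit. Of 7 mitochondrially encoded genes, 0 were called with edgeR after tDCS, with a median of -0.75. DESeq2 called 2 of them lower and limma voom 3. With edgeR, 2 were called lower with the 22 and 1 with the 42 mice in one fit, 1 after the filterByExpr filter on low counts, and 2 without the 3xTg-AD tDCS mouse T or Z. Under sham 6 were called lower, with a median of -1.49.

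**Figure D4:**
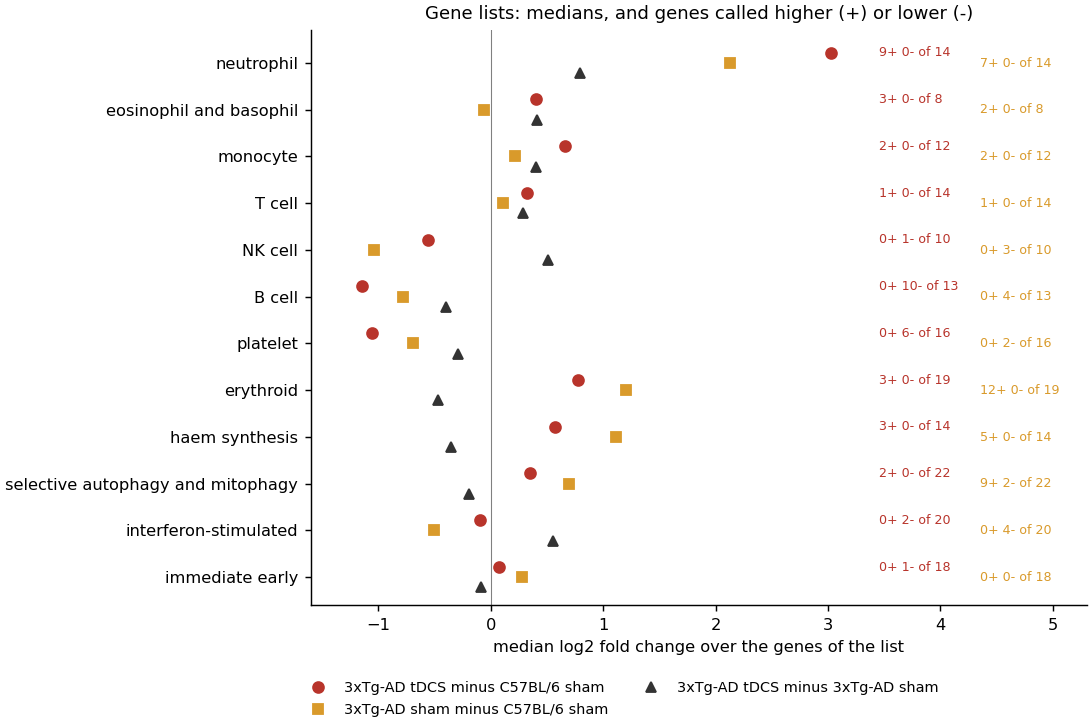
The horizontal position gives the median log2 fold change over the genes of each list for 3xTg-AD tDCS minus C57BL/6 sham (circles), 3xTg-AD sham minus C57BL/6 sham (squares) and 3xTg-AD tDCS minus 3xTg-AD sham (triangles), and the numbers at the right count the genes called in the first 2 of these. After tDCS the neutrophil list has a median of 3.03 and the B cell list of -1.15, and the Klr receptors (-1.63), the coagulation genes (-1.57) and other lists are not drawn.

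Of 24 genes of amyloid processing and Alzheimer risk, 2 were higher and called with edgeR, and 0 were lower and called. Over all genes tested, 2.94% were called higher and 2.51% lower. The count lower was 2 with DESeq2, 2 with the 22 and 2 with the 42 mice in one fit, 1 with limma voom, 2 without AZ and 1 without M, Q, T or Y. Both genes called higher encode proteins of myeloid cells. Cd33, a sialic acid receptor, had 6.53 to 34.9 CPM against 3.16 to 9.26, and Tyrobp, an adaptor of activating receptors, 156 to 288 against 57.5 to 176. The groups overlapped in both, and at 3 months DESeq2 called Cd33 in the opposite direction. The count higher was 0 without the C57BL/6 sham mouse BA and 1 without N, Z, AL, AM, AA, AY or AZ. Of 18 immediate early genes, which many cells switch on soon after a stimulus, Jund alone was called with edgeR, lower at 341 to 721 CPM against 656 to 1628 (log2 fold change -1.138, SE 0.254). Skin and muscle can be drawn into a blood sample. Of 16 keratinocyte genes 0 were called with edgeR (1 without AN), with sums of 20.8 to 1403 CPM in 3xTg-AD tDCS and 59 to 406 CPM in C57BL/6 sham mice. Of 5 muscle genes 0 were called (1 without AZ), with sums of 2.96 to 10.5 and 2.35 to 6.37 CPM. Of 5 sex-linked genes, Eif2s3y on the Y chromosome was called higher, at 6.56 to 17.5 CPM against 1.59 to 6.22, and this call was lost with 42 mice in one fit. Ddx3y, on the same chromosome, was not called, at 12 to 21.6 CPM against 11.1 to 17.1.

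The 5 genes of smallest p between 3xTg-AD tDCS and 3xTg-AD sham mice were Jtb, Arl11, Itga6, Zfp974 and St3gal2. They were chosen by that contrast, so their values in it are a description, and edgeR called none of them (adjusted p = 0.353 for each). DESeq2 called Jtb (adjusted p = 0.00053), Arl11 (0.00326), Itga6 (0.00326) and St3gal2 (0.00558) among its 45, but not Zfp974. Of those 45, 19 were also called by edgeR between 3xTg-AD sham and C57BL/6 sham mice, all in the opposite direction, and both contrasts share the 3xTg-AD sham mice. Jtb encodes a small membrane protein. It had 9.36, 11.3 and 14.2 CPM in 3xTg-AD tDCS mice, 5.76 (O), 3.96 (P), 5.52 (R), 6.04 (S) and 5.88 (AQ) in 3xTg-AD sham mice and 5.79, 11 and 16.4 in C57BL/6 sham mice. Its log2 fold change was 1.03 against 3xTg-AD sham (95% interval 0.656 to 1.4), -0.049 against C57BL/6 sham (adjusted p = 0.937), and -1.07 for 3xTg-AD sham against C57BL/6 sham. Arl11, a small GTPase, had 2.55 to 9.43, 1.41 to 1.79 and 1.68 to 5.9 CPM in the same order of groups. Zfp974, a zinc finger gene, had 0.365 to 1.73, 0.0456 to 0.188 and 0.463 to 1.72 CPM. Itga6, an integrin that binds laminin, had 134 to 241, 258 to 506 and 119.8 to 388 CPM. St3gal2, a sialyltransferase, had 8.44 to 26.9, 27.9 to 39.2 and 8.05 to 19.2 CPM. In each of the 5, 3xTg-AD tDCS mice overlapped C57BL/6 sham mice and did not overlap 3xTg-AD sham mice. Both can follow from choosing the genes by the contrast with 3xTg-AD sham mice, so neither is evidence of a shift toward C57BL/6. The share of all genes without overlap in that contrast was not counted.

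The study names Crat, Ybx3 and Ago2 for tDCS in 3xTg-AD mice, from these samples among others, so their order is not independent evidence. In all 3 the mean after tDCS lay between that of C57BL/6 sham and that of 3xTg-AD sham mice. Crat, carnitine acetyltransferase, had 38.7, 53.8 and 104 CPM after tDCS, 10.5, 22.7 and 48.1 in C57BL/6 sham mice and 135 (O), 109.7 (P), 98.9 (R), 96.1 (S) and 86.3 (AQ) in 3xTg-AD sham mice. Its log2 fold changes were 1.05 against C57BL/6 sham (SE 0.315, edgeR adjusted p = 0.0595) and -0.84 against 3xTg-AD sham (95% interval -1.27 to -0.41). Ybx3, a cold shock protein that binds RNA, had 858 to 1849 CPM after tDCS, 429.8 to 1715 in C57BL/6 sham and 2000 to 3147 in 3xTg-AD sham mice. Ago2, which cleaves the targets of small RNAs, had 162 to 262, 62.2 to 166 and 238 to 419. None of the 3 was called against C57BL/6 sham or against 3xTg-AD sham mice with edgeR. DESeq2 called Ybx3 lower after tDCS than under sham (adjusted p = 0.0313). Crat overlaps Dolpp1 and Ago2 overlaps Chrac1 on the opposite strand. Of the 25 genes on the study's list for tDCS, 6 were called higher and 0 lower against C57BL/6 sham mice, and 10 or 11 higher with DESeq2, limma voom or the fits of 22 or 42 mice. Rnf123, a ubiquitin ligase, was among the 6, with 4.37 to 14.3 CPM against 0.431 to 3.94 in C57BL/6 sham and 13.2 to 29.3 in 3xTg-AD sham mice. Between tDCS and sham it was called lower with DESeq2 (adjusted p = 0.0323) and not with edgeR.

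**Figure D5:**
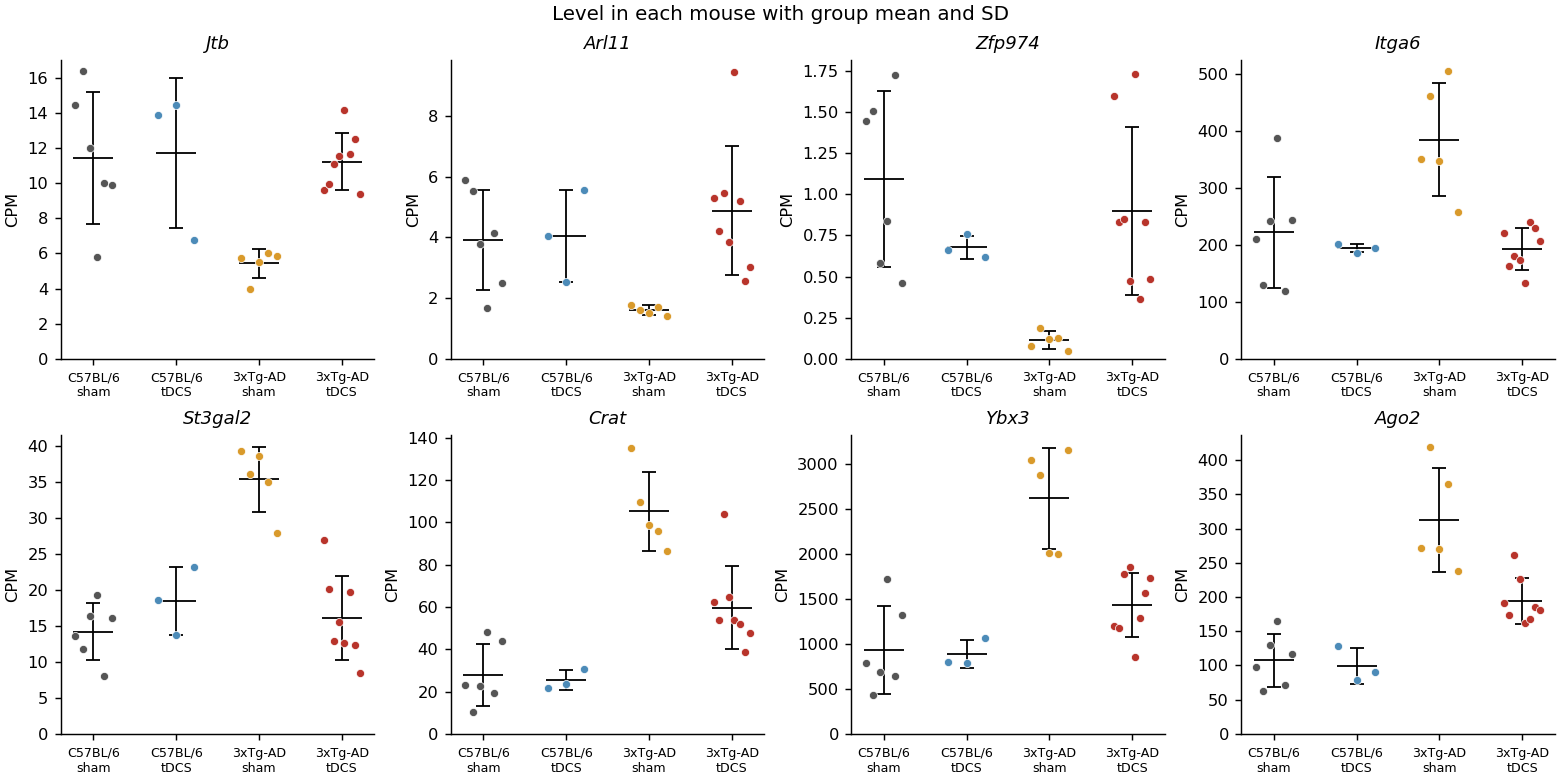
Each panel gives the CPM of a gene in every hippocampal mouse of 6 months on an axis from 0, with group mean and SD, for the 5 genes of smallest p between 3xTg-AD tDCS and sham and for Crat, Ybx3 and Ago2. For Jtb, Arl11, Zfp974, Itga6 and St3gal2 the 3xTg-AD tDCS mice overlap the C57BL/6 sham mice, and for Crat, Ybx3 and Ago2 their mean lies between those of C57BL/6 sham and 3xTg-AD sham mice.

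Some called genes lay close together, with positions in GRCm38. Josd2 (chr7:44467980-44471662) and 5430431A17Rik, a long non-coding gene just downstream with a log2 fold change of 4.27, were higher, as was Klk1b22 (chr7:44112673-44116922) in the same window of 20 genes. Spib, a transcription factor of B cells, and Pold1, a DNA polymerase subunit, were lower there, by log2 fold changes of -1.15 and -1.36. Idua (chr5:108660331-108684557) and Fgfrl1 (chr5:108692382-108706924) are neighbours, and both were lower. Apoe lies at chr7:19696109-19699188. Of 769 windows of 20 consecutive genes, 288 held 0 called genes and 1 held 7, the most. That window, on chromosome 4, held Orm1 and Orm2, which encode acute phase proteins, and Orm1 had a log2 fold change of 5.74 (SE 1.48). A window on chromosome 7 held 6 called genes, all lower, among them the imprinted gene H19 and Cd81, a coreceptor of B cells. The share of genes called ran from 3.1% on chromosome 18 to 7.9% on chromosome 7. Neighbouring genes are not independent, and these windows were not tested.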

How the data were processed

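Whole blood RNA was depleted of globin transcripts, turned into 3′ mRNA libraries and sequenced on the Ion Proton. The authors trimmed the reads with cutadapt 1.14 and aligned and counted them with STAR 2.6 on mm10, per the submitters' processing notes. The deposited values are whole-number counts per gene without normalization, 15613 genes in 42 mice, which the authors filtered on low counts. The RNA integrity number that the study used as a covariate is not in the labels and did not enter. Where nothing states otherwise each sample is taken as 1 mouse.

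Mice were grouped by the strain, age, stimulation and site in their labels. Every gene with 1 read or more among the mice of a comparison was tested in R 4.3.3 with edgeR 4.0.16 (TMM, quasi-likelihood F test, Benjamini-Hochberg adjustment over all genes tested, threshold 0.05). The script was tested on simulated data. Levels are CPM with TMM scaling, and log2 distances used a prior count of 2. The 95% intervals of log2 fold changes are the estimate with its SE times a normal quantile. They are narrower than the quasi-likelihood F test would give with so few mice. A gene without a read was set to 3 reads per library for a lower bound of a fold. Floors and intervals cover counting error or the spread between these mice only (no molecular identifiers were used). Named genes were the 10 called genes of smallest p in each direction, up to 10 genes called in 3xTg-AD sham against C57BL/6 sham and in the opposite direction in tDCS against sham (with edgeR there could be none, as it called 0 genes there, and DESeq2 gave 19), the 5 of smallest p in tDCS against sham, and the listed genes. The comparison, the lists and the rule were chosen with earlier results of these data known. The exact permutation test of distances between 3xTg-AD tDCS and sham mice (Python 3.11.15, scipy 1.17.1) and its alternatives were added after the data were seen. Alternatives were DESeq2 1.42.0 (likelihood ratio test), RLE scaling, filterByExpr, limma 3.58.1 voom, fits of 22 and 42 mice, a haemoglobin covariate, removal of haemoglobin genes and leaving out each mouse. Of 15613 identifiers, 15607 were found in GENCODE M21 (GRCm38), which gave names and positions, 14873 in the same version. Promoters came from RefSeq. Some listed genes are counted in their lists but not reported by name here.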

Additional observations from a re-analysis of the deposited data

Results flagged for a closer look

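In 6 of 96 groups of 4 to 10 mice that were tested, 1 mouse stood apart from the others of its group by Dixon's criterion, and chance alone gives about 1 in 20. Among 3xTg-AD tDCS mice, mouse T had the highest Cttnbp2, at 42.9 CPM, and mouse Q the highest 1700030C10Rik, at 0.0303 CPM, which is 1 read. Among C57BL/6 sham mice, the highest BC018473 was 0.038 CPM in mouse W and the highest Gm45104 was 0.0253 CPM in mouse AA, each 1 read, and the highest AA465934 was 2.51 CPM, in mouse W. Among 3xTg-AD sham mice, mouse P had the lowest Jtb, at 3.96 CPM. Mouse T was also the one without which the difference in distance over the prefrontal genes was -0.275, the only removal there with an exact permutation p under 0.05.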

How the results depend on the processing

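DESeq2 called more genes than edgeR in every comparison but the interaction, where both called 0. The counts were 1306 against 851 for 3xTg-AD tDCS against C57BL/6 sham mice, 1822 against 1233 for 3xTg-AD sham against C57BL/6 sham, 45 against 0 for 3xTg-AD tDCS against sham, 575 against 219 against C57BL/6 tDCS mice, 1246 against 644 for 3xTg-AD sham against C57BL/6 tDCS mice, 1073 against 476 for the prefrontal and 489 against 58 for the 3-month comparison. With 22 mice in one fit, 3xTg-AD tDCS mice differed from C57BL/6 tDCS mice in 399 genes. Leaving out each mouse gave 557 to 1006 genes for the comparison with C57BL/6 sham mice, 781 to 1272 for 3xTg-AD sham against C57BL/6 sham, 57 to 244 against C57BL/6 tDCS mice, 174 to 639 for 3xTg-AD sham against C57BL/6 tDCS, 224 to 691 for the prefrontal and 18 to 657 for the 3-month comparison. With genes chosen by DESeq2 in place of edgeR, the mean distance of 3xTg-AD tDCS mice was 0.811 against 1.04 for genes chosen in the other hippocampal mice. It was 0.854 against 1.24 for prefrontal genes and 0.718 against 2.54 for 3-month genes. Of the 3-month genes, 386 of the 489 chosen by DESeq2 had the same sign in the 14 mice, and 55 of the 58 chosen by edgeR. The difference in distance between tDCS and sham ran from -0.275 to -0.138 for prefrontal and from -0.134 to -0.0101 for 3-month genes when each mouse was left out. The causes of these differences were not tested. Of 7451 values of 340 named genes under the alternatives of the comparison with C57BL/6 sham mice, 7113 kept their direction and side of the threshold, 203 fell below it, 135 rose above it and 0 reversed, and 31 of 86 called genes lost their call in at least 1. No paired analysis was made, because the groups compared hold different mice and the labels give no pairing between them. Genes near 1 read per library are limited by depth.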

Other observations

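At 3 months, in mice outside the 6-month groups, Klk1b22 had 25.2, 25.2 and 27.9 CPM in the 3 3xTg-AD mice and no read in the 3 C57BL/6 mice. Apoe had 11.8, 12.5 and 11.9 CPM in the 3xTg-AD mice and 75.6, 28.9 and 61.2 in the C57BL/6 mice. These mice also served to choose the 3-month strain genes above. The study names both genes from these samples among others, so their values are not independent evidence.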
